A study of Apeltes quadracus with 21 samples.

Results

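The third dorsal spine (DS3) was compared with the first dorsal spine (DS1), counted from the head, in the fourspine stickleback *Apeltes quadracus*. The comparison rests on 6 of the 21 RNA-seq libraries, 3 of DS3 and 3 of DS1, and the same 3 fish gave both spines, so the libraries pair by fish (replicates 1, 2 and 3). All fish were fry of the Louisbourg population raised in the lab to the fin fold stage (stage 31), had 4 dorsal spines and carried the L haplotype on both chromosomes at the *HOXDB* cluster (genotype L/L). The authors associate L with low spine number, and every library used here shares the genotype, so the differences below are differences between positions within one genotype. The same fish also gave the second and the last dorsal spine (DS2 and DSL), the dorsal and the anal fin (DF and AF) and a pterygiophore without a spine (Pter, a bone of the dorsal midline), with 3 libraries each. The values are read counts for 31532 gene models, of which 21134 had enough reads to be tested. Only 47 gene models, the *Hox* genes, carry a name, so the dissected tissue could not be checked against markers of bone, cartilage, skin or muscle, and other gene models are given by ID, with coordinates in the authors' own *Apeltes* assembly.

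*Hox* genes encode homeodomain transcription factors that give cells their position along the body axis. They lie in clusters, and genes at one end of a cluster (low paralogue group numbers) are used near the head while genes at the other end (high numbers) are used nearer the tail. Teleost fishes carry additional clusters from a genome duplication, so that a and b copies such as *HOXDA* and *HOXDB* coexist. Dorsal spines are bony elements of the dorsal midline that form one behind the other and that sticklebacks raise against predators, which makes adjacent spines a series of similar structures at different axial positions.

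Total counts ran from 30317361 to 33718161 in DS1 and from 27087112 to 32669291 in DS3. Expression is given as CPM, the count relative to library size, after scaling by trimmed mean of M values (TMM) factors, which ran from 0.915 to 1.19 in DS1 and from 0.861 to 0.937 in DS3. The 10 most abundant genes took 15.2% to 23.2% of the counts in DS1 and 21.9% to 24.8% in DS3. These tissues are mixtures of cells, and in such bulk samples fewer cells of a type and less RNA per cell cannot be told apart.

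The highest log2 differences of all tested gene models between DS3 and DS1 were those of *HOXD9B* and *HOXD11B*, and all 3 genes of the *HOXDB* cluster, which also holds *HOXD4B*, were higher in DS3. *HOXD9B* and *HOXD11B* went from a few reads in DS1 to a clear signal in DS3. They lie on chromosome 6 between positions 16016955 and 16045602. *HOXD9B*, a paralogue group 9 gene at chromosome 6, 16025019 to 16029400, had 0.0833, 0 and 0 CPM in DS1 (replicates 1, 2 and 3) and 25.5, 22.6 and 21.4 CPM in DS3. The DS3 libraries were close to one another and far above every DS1 library. Pooled over the 3 fish this was 3 reads against 1859, a ratio of depth-scaled counts of 759 with a 95% interval of 259 to 3685 that covers counting error only. The fitted log2 difference was 9.40 (n = 3 fish, edgeR's quasi-likelihood test, Benjamini-Hochberg adjusted over all tested genes, adjusted p = 2.25e-13). On leaving out 1 fish or library it ran from 8.86 to 12.4. The approximate SE of 0.329 is derived from the test statistic and understates the uncertainty of a gene with so few reads in DS1.

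*HOXD11B*, a paralogue group 11 gene at 16016955 to 16021639, had 0.111, 0 and 0.0361 CPM in DS1 and 14.3, 10.6 and 8.95 CPM in DS3. Again no DS1 library came near the DS3 range, and the pooled reads were 5 against 902 (ratio 221, 95% interval 94.4 to 682). The log2 difference was 7.69 ± 0.367 (SE, n = 3, edgeR, adjusted p = 4.61e-11). *HOXD4B*, the paralogue group 4 gene at 16032884 to 16045602, was already present in DS1, at 1.91, 2.48 and 2.67 CPM, and reached 7.9, 8.49 and 8.02 CPM in DS3. It rose in all 3 fish, by 1.80 ± 0.195 on the log2 scale (SE, n = 3, edgeR, adjusted p = 4.05e-05), a much smaller step than that of its neighbours. Another gene model on the same strand overlaps *HOXD4B*, so its counts are uncertain. Divided by exon length, the 3 genes stood at 7.95, 3.23 and 1.57 CPM per kb in DS3 for *HOXD9B*, *HOXD11B* and *HOXD4B*, and at 0.00951, 0.014 and 0.456 in DS1, so that the order within the cluster differed between the spines.

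**Figure D1:**
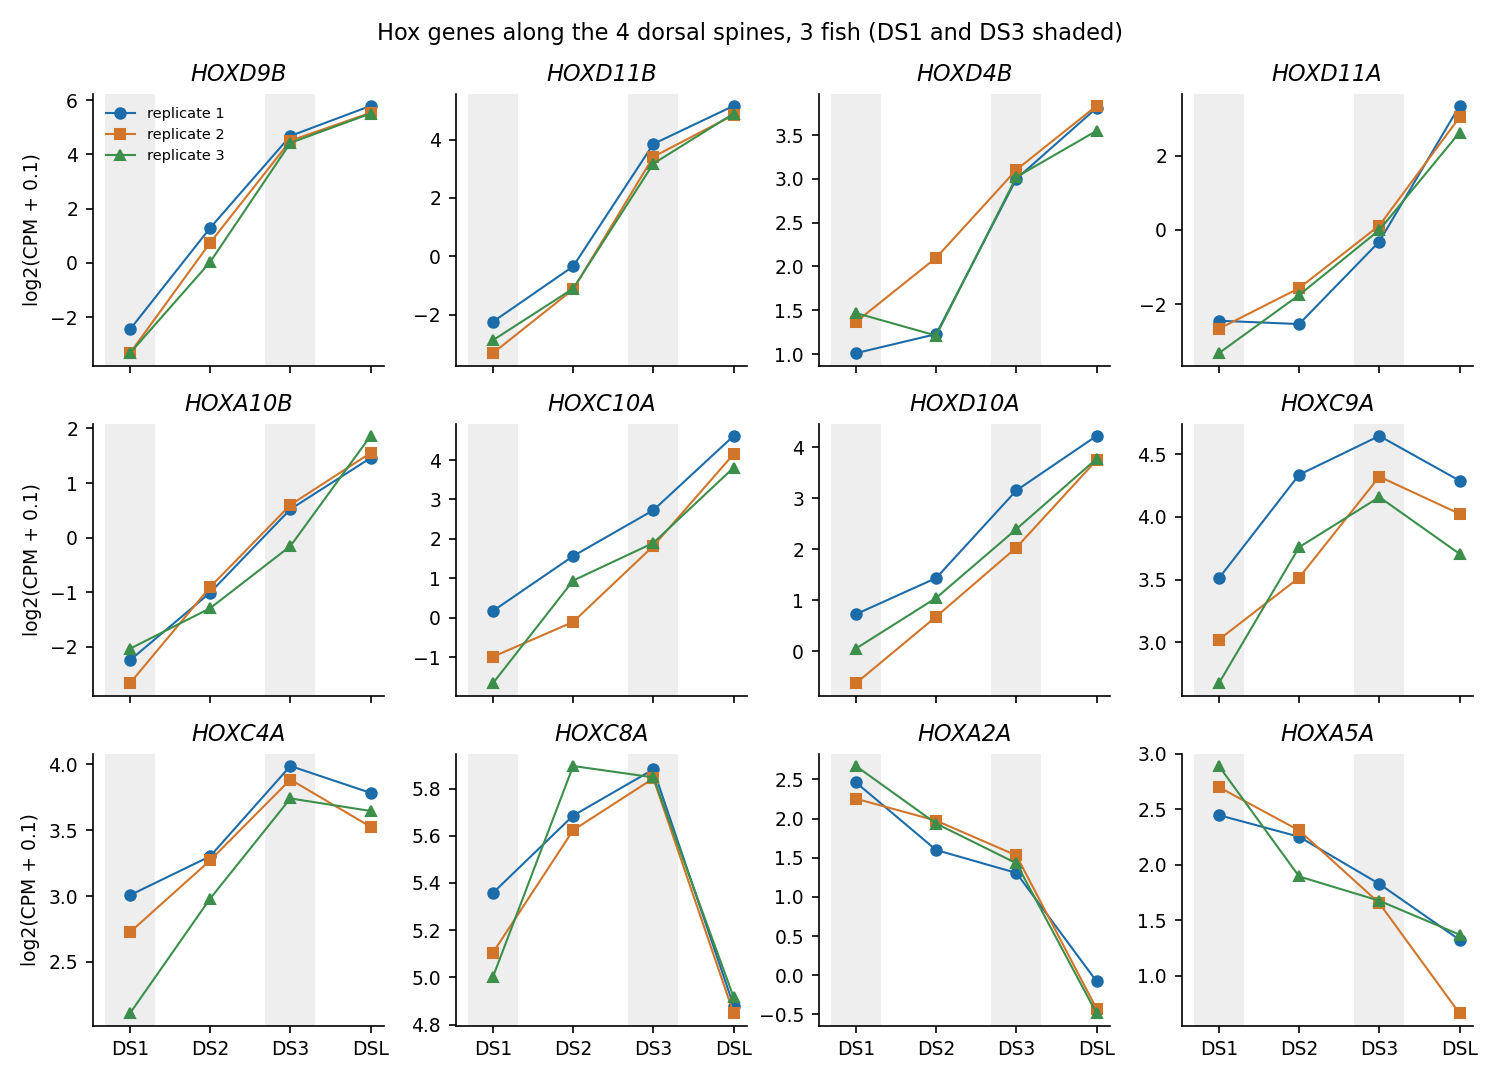
Level of 12 *Hox* genes in DS1, DS2, DS3 and DSL, as log2(CPM + 0.1), with 1 line per fish and the compared spines shaded. *HOXD9B* and *HOXD11B* lie near the bottom of their axes in DS1 in all 3 fish and climb through DS2 and DS3, whereas *HOXA2A* and *HOXA5A* decline and *HOXC8A* is highest in DS2 or DS3 and low in DSL.

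With *HOXDB* included, 15 of the 38 tested *Hox* genes were higher in DS3 and 2 were lower (47 were named, and 9 had too few reads to test). That is 44.7% of the tested *Hox* genes, beside 2.51% of all tested gene models called in either direction, 1.24% called higher and 1.27% called lower. The clusters did not move together. *HOXDA* had 4 of 6 tested genes higher, *HOXCA* 5 of 8 and *HOXAB* 2 of 5, and none of these clusters had a lower gene. *HOXAA* had 1 gene higher and 2 lower of 9, and *HOXBA* had no call in 7, with log2 differences from −0.90 to 0.14. None of the 4 *HOXBB* genes had enough reads to test. By paralogue group, groups 9 to 13 had 9 genes higher and none lower of 19 (median log2 difference 2.17), groups 4 to 8 had 6 higher and 1 lower of 13 (median 0.14), and groups 1 to 3 had none higher and 1 lower of 6 (median −0.37). Over all tested gene models the median was −0.01. The median of groups 9 to 13 includes *HOXA11B*, *HOXA13B*, *HOXC11A*, *HOXC12A* and *HOXD12A*. Each of these had 0 or 1 pooled read in DS1 and a positive fitted difference, from 1.99 to 4.23.

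**Figure D2:**
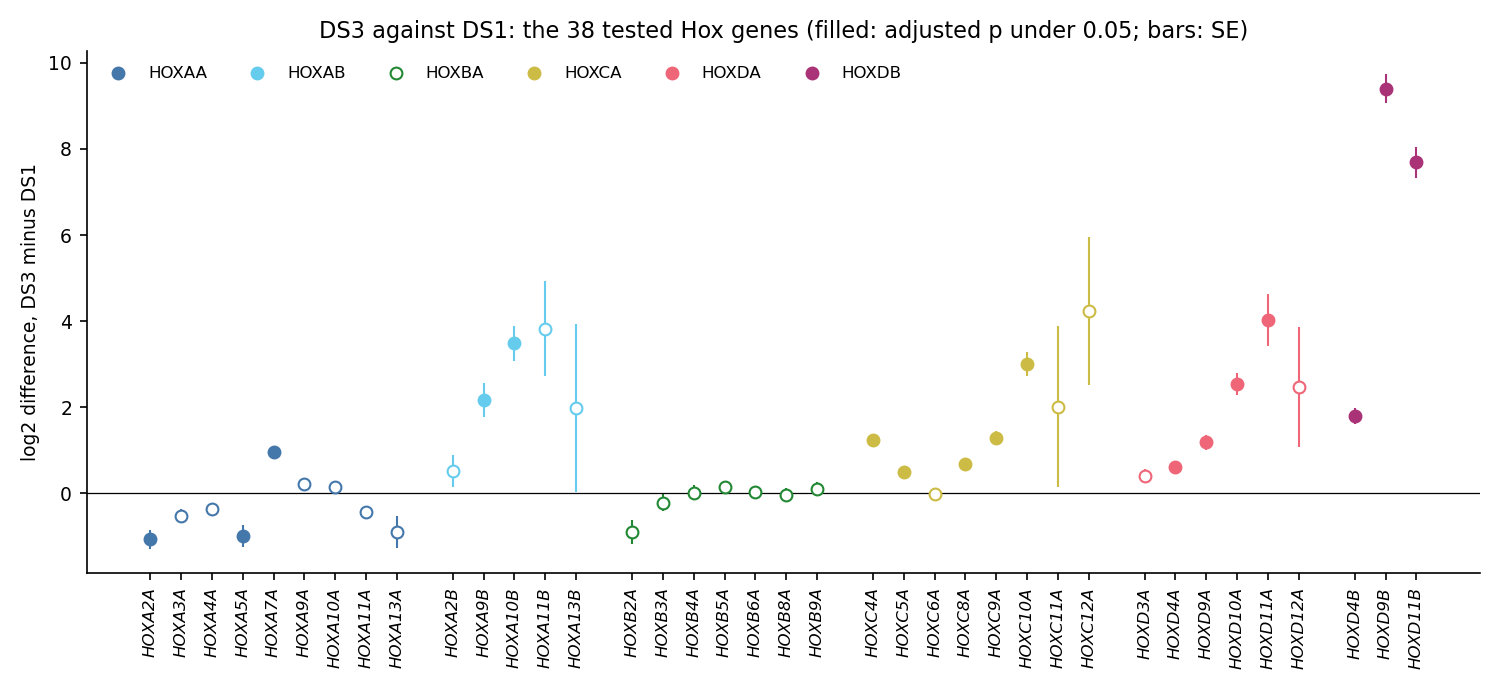
Log2 difference DS3 minus DS1 of the 38 tested *Hox* genes, ordered by cluster and then by paralogue group, with bars of 1 approximate SE. The bars of *HOXD9B* and *HOXD11B* understate the uncertainty. Filled points have an adjusted p under 0.05. *HOXDB* reaches 9.40, the filled group 10 and 11 genes of *HOXAB*, *HOXCA* and *HOXDA* lie between 2.55 and 4.02, and *HOXBA* stays between −0.90 and 0.14.

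The called group 9 to 11 genes of *HOXDA*, *HOXCA* and *HOXAB* formed a second tier below *HOXD9B* and *HOXD11B*. Their log2 differences ran from 1.19 to 4.02, a range that also holds *HOXD4B* (1.80). In the mouse, group 10 genes specify rib-free lumbar vertebrae and group 11 genes the sacral region, and in limbs the same groups pattern the upper and the middle segment. *HOXD11A* had 0.0833, 0.0577 and 0 CPM in DS1 and 0.705, 0.986 and 0.898 CPM in DS3. It rose in every fish, by 4.02 ± 0.605 on the log2 scale (SE, n = 3, edgeR, adjusted p = 0.00141), from 5 pooled reads to 69 (ratio 16.9, 95% interval 6.91 to 53.7). *HOXA10B* had 0.111, 0.0577 and 0.144 CPM in DS1 and 1.33, 1.42 and 0.798 CPM in DS3. Its groups did not overlap, and the log2 difference was 3.48 ± 0.398 (SE, n = 3, edgeR, adjusted p = 7.71e-05). *HOXC10A* had 1.03, 0.404 and 0.216 CPM in DS1 against 6.53, 3.43 and 3.63 CPM in DS3. Replicate 1 was the highest in both spines, and the within-fish log2 differences were 2.59, 2.90 and 3.71, with a fitted log2 difference of 3.01 ± 0.281 (SE, n = 3, edgeR, adjusted p = 6.77e-06).

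*HOXD10A* followed the same course, from 1.55, 0.548 and 0.937 CPM in DS1 to 8.79, 3.99 and 5.16 CPM in DS3 (log2 difference 2.55 ± 0.256, SE, n = 3, edgeR, adjusted p = 1.84e-05). *HOXA9B* was scarce in both spines, with 0.111, 0.173 and 0.361 CPM in DS1 and 0.853, 1.16 and 0.832 CPM in DS3 (log2 difference 2.17 ± 0.398, edgeR, adjusted p = 0.00804). The group 9 genes *HOXC9A* and *HOXD9A* were more abundant and changed less. *HOXC9A* had 11.3, 8.01 and 6.27 CPM in DS1 and 25, 19.9 and 17.8 CPM in DS3, a log2 difference of 1.30 ± 0.149 (SE, n = 3, edgeR, adjusted p = 7.71e-05). *HOXD9A* had 5.69, 3.2 and 3.64 CPM in DS1 and 9.79, 9.82 and 8.52 CPM in DS3, a log2 difference of 1.19 ± 0.172 (adjusted p = 0.0012). For all of these genes the lowest DS3 library stood above the highest DS1 library. Gene models on the other strand overlap *HOXD9A* and *HOXD10A*. Leaving out 1 fish or library took the *HOXA9B* call away in 5 of 9 cases, with an adjusted p of up to 0.22, and *HOXD9A* lost its call without fish in the model (adjusted p = 0.111).

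The anterior and middle genes called outside *HOXDB* moved in both directions, by at most 1.24 on the log2 scale. The largest of these steps was above that of the group 9 gene *HOXD9A* (1.19). *HOXC4A*, whose mouse counterpart belongs to the group that patterns neck vertebrae, had 7.94, 6.52 and 4.22 CPM in DS1 and 15.8, 14.7 and 13.3 CPM in DS3, a log2 difference of 1.24 ± 0.146 (SE, n = 3, edgeR, adjusted p = 9.2e-05). *HOXA7A* had 10.05, 9.05 and 5.84 CPM in DS1 and 16.1, 19.1 and 12.7 CPM in DS3, a log2 difference of 0.95 ± 0.125 (adjusted p = 0.000431). *HOXC8A*, the most abundant *Hox* gene per kb in both spines, went from 15.4 to 24.9 CPM per kb, and its log2 difference was 0.69 ± 0.118 (adjusted p = 0.00523). *HOXD4A* (0.61 ± 0.113, adjusted p = 0.00824) and *HOXC5A* (0.50 ± 0.129, adjusted p = 0.045) completed the genes that were higher in DS3.

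The 2 *Hox* genes that fell are in *HOXAA* on chromosome 10. The mouse counterpart of *HOXA2A* is known for patterning the hindbrain and the second pharyngeal arch. Here *HOXA2A* had 5.41, 4.67 and 6.27 CPM in DS1 and 2.37, 2.79 and 2.59 CPM in DS3. It fell in all 3 fish, by 1.07 on the log2 scale (SE 0.227, n = 3, edgeR, adjusted p = 0.0198), and a gene model on the other strand overlaps it. *HOXA5A* had 5.36, 6.4 and 7.32 CPM in DS1 and 3.45, 3.05 and 3.09 CPM in DS3, and fell by 0.98 (SE 0.251, adjusted p = 0.045). In the same cluster *HOXA3A* (−0.52, adjusted p = 0.0727) and *HOXA4A* (−0.35, adjusted p = 0.0999) had non-overlapping groups with DS3 lower but missed the threshold. *HOXA7A* lies between these genes and *HOXA9A*, which had a log2 difference of 0.22 with overlapping groups (adjusted p = 0.367). The calls of *HOXA2A*, *HOXA5A* and *HOXC5A* were lost in 7, 9 and 9 of the 9 cases that left out 1 fish or library, with adjusted p-values of 0.0558 to 0.231. Those of *HOXD4A*, *HOXA7A* and *HOXC8A* were lost in 3, 1 and 1, in the last pair without replicate 2 (adjusted p = 0.0656 and 0.183). Without fish in the model these 6 calls were lost too, at adjusted p-values of 0.0776 for *HOXC8A* to 0.48 for *HOXC5A*.

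Several *Hox* genes did not pass the test. *HOXC6A*, between *HOXC5A* and *HOXC8A*, had 24, 22.5 and 23.4 CPM in DS1 and 24.4, 21.6 and 23.4 CPM in DS3, and its log2 difference was −0.01 ± 0.0828 (adjusted p = 0.966), although genes on both of its sides rose. A gene model on the other strand overlaps *HOXC6A*. *HOXB9A* (0.10 ± 0.158) and *HOXA10A* (0.14 ± 0.116) had overlapping groups, while the *HOXAB* copy of the latter, *HOXA10B*, and *HOXC9A* and *HOXD9A* passed. None of the group 9 to 13 genes of *HOXAA* passed the test. *HOXA11A* had 22.4, 17.2 and 12.5 CPM in DS1 and 15.6, 12.3 and 10.5 CPM in DS3, less in DS3 in each fish with overlapping groups (log2 difference −0.43 ± 0.137, adjusted p = 0.0888), and *HOXA13A* had 91 pooled reads in DS1 and 40 in DS3 (−0.89 ± 0.366, adjusted p = 0.182). Some posterior genes of other clusters were barely read. *HOXA11B* had 1 pooled read in DS1 and 16 in DS3 (log2 difference 3.83, edgeR, adjusted p = 0.0633). *HOXD12A* had 1 and 6, *HOXC12A* had 0 and 6, and *HOXC11A* and *HOXA13B* each had 0 and 1. A count of 0 over the group allows up to 3 reads, so a difference in the last pair was not detectable at this depth.

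Intermediate spines place these differences along the back. DS2 and DSL libraries do not enter the DS3 and DS1 means, though they come from the same fish and share the fit's estimate of spread. *HOXD9B* had 2.35, 1.58 and 0.926 CPM in DS2 and 55.2, 46.3 and 45.4 CPM in DSL, so each fish showed the order DS1, DS2, DS3, DSL. It was the only gene model called between DS2 and DS1 (1 of 21134, 0.00473%; log2 difference 5.52, edgeR, adjusted p = 1.44e-05). Between DS3 and DS2 the 4 calls (0.0189%) were *HOXD9B* (3.88), *HOXD11B* (4.6), *HOXD4B* (1.53) and *HOXD10A* (1.54), all higher in DS3. *HOXD11B*, at 0.687, 0.355 and 0.365 CPM in DS2, had a log2 difference of 3.09 between DS2 and DS1 (edgeR, adjusted p = 0.0884). For *HOXC10A* that difference was 1.73 (edgeR, adjusted p = 0.076), so both missed the threshold. *HOXD4B* had a log2 difference of 0.27 between DS2 and DS1 (edgeR, adjusted p = 0.784). *HOXC11A* was at 0 reads in DS1 and DS2 and had 1 read in DS3, and it had 12.1, 8.52 and 8.68 CPM in DSL. In DF the means of *HOXD9B*, *HOXD11B* and *HOXD4B* were 16.0, 7.97 and 6.23 CPM. These were below their DS3 means of 23.2, 11.3 and 8.14 CPM, whereas *HOXC11A* had a DF mean of 37.5 CPM.

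Outside the *Hox* list, 514 of 21096 tested gene models differed between DS3 and DS1 (2.44%), with 247 higher and 267 lower in DS3. Together with *Hox* this was 531 calls, 262 higher and 269 lower, and 4072 gene models had an unadjusted p under 0.05. Most differences were small. The median absolute log2 difference of the calls was 0.617, beside 0.172 over all tested gene models, and 97 calls exceeded 2-fold, of which 12 were *Hox* genes. In 524 of the 531 all 3 fish moved the same way, beside 38.4% of all tested gene models. The DS3 and DS1 libraries did not overlap in 314 of the 531, beside 10.3% of all tested gene models. All 17 *Hox* calls had non-overlapping libraries. The calls were chosen by a test paired by fish on these same libraries, which fixes such shares in large part. They describe the calls and are no separate evidence for them.

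**Figure D3:**
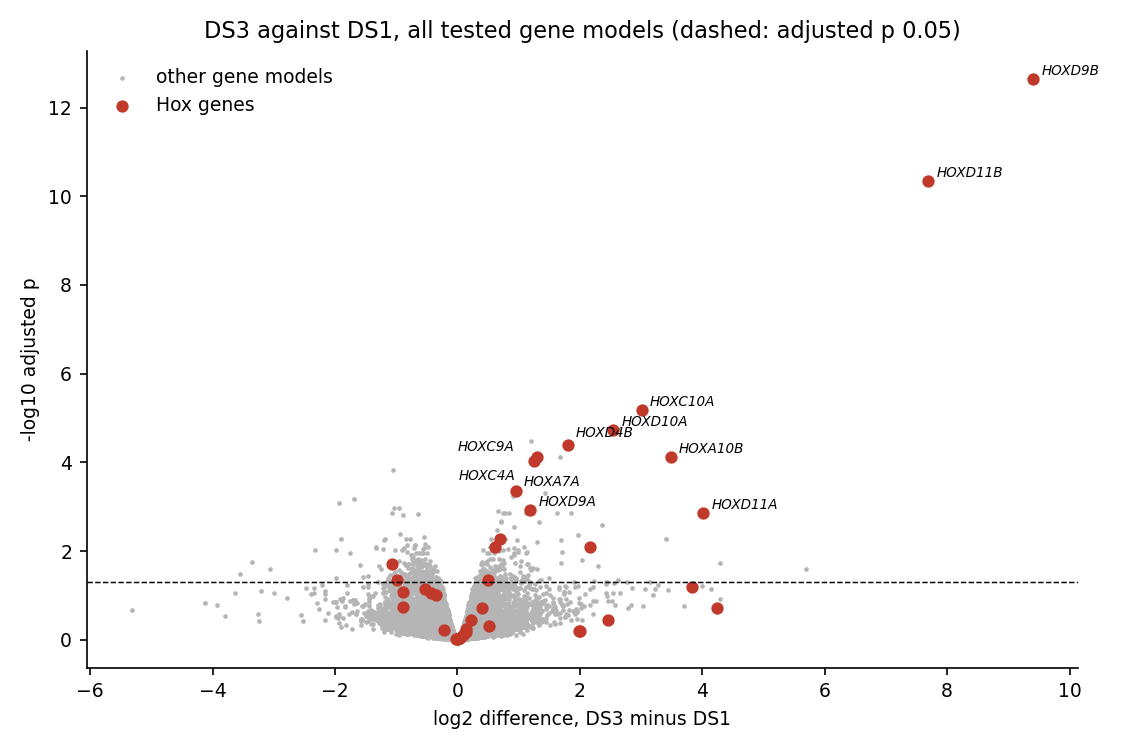
Log2 difference DS3 minus DS1 (x axis) against −log10 of the adjusted p (y axis) for the 21134 tested gene models, with *Hox* genes as large red points and the threshold as a dashed line. *HOXD9B* and *HOXD11B* stand far above the remaining genes, and most calls outside the *Hox* list lie close to the threshold.

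These counts depended on the fish term and on single libraries. Without fish in the model 15 gene models were called (0.071%), 13 higher (0.0615%) and 2 lower (0.00946%), 10 of them *Hox* genes, and all 15 were among the 531. Leaving out replicate 1, 2 or 3 gave 27, 25 and 1452 calls. Leaving out the DS1 library of replicate 3 alone gave 2407, and that library had the lowest TMM factor of the DS1 group (0.915); its part in the result was not tested. Across genes the DS3 minus DS1 differences of replicates 1 and 2 correlated with Pearson's r = 0.334, and those of replicate 3 with either of them at 0.136 and 0.126 (21134 gene models, which are not independent). The 10 genes called in the same direction under all 17 alternatives were *HOXD9B*, *HOXD11B*, *HOXD4B*, *HOXD10A*, *HOXD11A*, *HOXC4A*, *HOXC9A*, *HOXC10A*, *HOXA10B* and 1 gene model outside the list, STRG.12370.

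STRG.12370 (chromosome 9, 11050442 to 11053952, plus strand), named here after its values were seen, had 139, 167 and 104 CPM in DS1 and 73.5, 56.3 and 64.9 CPM in DS3. Every DS1 library exceeded every DS3 library. It fell by 1.05 on the log2 scale (SE 0.128, n = 3, edgeR, adjusted p = 0.000147). In DSL it was at 107, 103 and 101 CPM, with a mean between those of DS1 and DS3.

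The gene models with the largest falls were chosen by size among the calls with the same direction in 3 of 3 fish and a mean of at least 1 CPM in the higher spine (259 lower and 240 higher qualified, and 10 of each are named). STRG.8506 (chromosome 7, 1619187 to 1626220) had 26.7, 21 and 13.1 CPM in DS1 and 5.71, 5.79 and 6.32 CPM in DS3. It fell by 1.7 on the log2 scale (SE 0.233, n = 3, edgeR, adjusted p = 0.000657), and in DSL it was down to 0.283, 1.09 and 0.584 CPM. It was the only one of the 10 named falls that was also called lower in DSL than in DS2 (−4.33, adjusted p = 1.36e-08). STRG.319 (chromosome 1, 2602439 to 2606004) fell from 12.5, 17.8 and 6.78 CPM to 1.52, 4.76 and 3.46 CPM (log2 difference −1.93 ± 0.27, edgeR, adjusted p = 0.000838) but stood at 14.1, 20.3 and 16.7 CPM in DSL. STRG.12028 (chromosome 9, 6685793 to 6690828) fell from 27.6, 19.8 and 19.9 CPM to 9.2, 4.12 and 5.26 CPM (−1.91 ± 0.331, adjusted p = 0.00532), with DS2 already low at 7.88, 10.1 and 8.69 CPM. In these gene models DS1 was high in every fish and the groups did not overlap.

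STRG.14444 (chromosome 11, 3879588 to 3880947) had the largest fall of the named set, and its level varied widely among fish. It had 8.88, 112 and 16.4 CPM in DS1 and 1.74, 13.6 and 7.32 CPM in DS3, so the groups overlapped while each fish had less in DS3 (log2 difference −2.33 ± 0.442, edgeR, adjusted p = 0.00955). In DSL it was at 22.1, 168 and 84.9 CPM. The remaining falls of the set, STRG.7765, STRG.10609, STRG.30868, STRG.28748, STRG.25886 and STRG.10611, ranged from −1.98 to −1.33 in log2 difference. STRG.10609 and STRG.10611 both lie on chromosome 8, at 4010696 to 4016885 and 4096352 to 4097895. A gene model on the other strand overlaps STRG.30868.

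Among the gene models that rose, the largest log2 differences rested on single libraries. STRG.26542 had 0, 0.0288 and 0.108 CPM in DS1 and 0.0371, 9.09 and 0.732 CPM in DS3, and STRG.14685 had 0.111, 0.461 and 0.252 CPM in DS1 and 0.371, 31.5 and 0.366 CPM in DS3. In both, replicate 2 alone was high and the groups overlapped. Their log2 differences of 5.7 and 4.3 (edgeR, adjusted p = 0.0252 and 0.019) missed the threshold with DESeq2 and without replicate 2. STRG.1910 was likewise highest in replicate 2 (5.83 CPM in DS3) and STRG.1816 in replicate 3 (6.22 CPM).

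Most other rises were shared by the fish. STRG.11779 (chromosome 9, 2486670 to 2489141) had 0.555, 0.807 and 0.144 CPM in DS1 and 2.78, 1.8 and 3.06 CPM in DS3, with no overlap and a log2 difference of 2.36 ± 0.378 (SE, n = 3, edgeR, adjusted p = 0.00256). It was lower again in DSL, at 0.706, 0.547 and 0.321 CPM. STRG.15076 (chromosome 11, 11504071 to 11507709) had 0.694, 1.41 and 0.973 CPM in DS1 and 4.04, 4.42 and 2.63 CPM in DS3 (1.86 ± 0.278, adjusted p = 0.00141, and 0.0222 without fish in the model) and stayed high in DSL, at 5.79, 5.85 and 4.56 CPM. STRG.25275 (chromosome 19, 16265638 to 16269422) had 1.89, 4.67 and 5.44 CPM in DS1 and 12.8, 22.4 and 9.58 CPM in DS3 (1.97 ± 0.331, adjusted p = 0.00445). Its neighbour STRG.25272 (16240235 to 16243869), named after its values were seen, rose with it, from 4.52, 13.2 and 10.1 CPM to 22.9, 33.4 and 25.3 CPM (1.67 ± 0.192, adjusted p = 7.71e-05, but 0.495 without fish in the model). Both were also higher in DSL than in DS2, by 1.35 and 1.05 on the log2 scale (adjusted p = 0.0184 and 0.00282). STRG.21921, STRG.26889 and STRG.27268 had log2 differences of 1.71 to 2.24. The fish were uneven in the first 2 of these. STRG.21921 had 0.705, 3.39 and 0.565 CPM in DS3, so replicate 2 was far above the others. STRG.26889 hardly rose in replicate 2 (7.81 to 9.18 CPM), and its within-fish log2 differences were 2.16, 0.231 and 3.59. Each of the 20 named gene models lost its call in at least 1 of the 9 cases that left out a fish or library, with adjusted p-values between 0.0504 and 0.724, and all except STRG.15076 lost it without fish in the model.

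**Figure D4:**
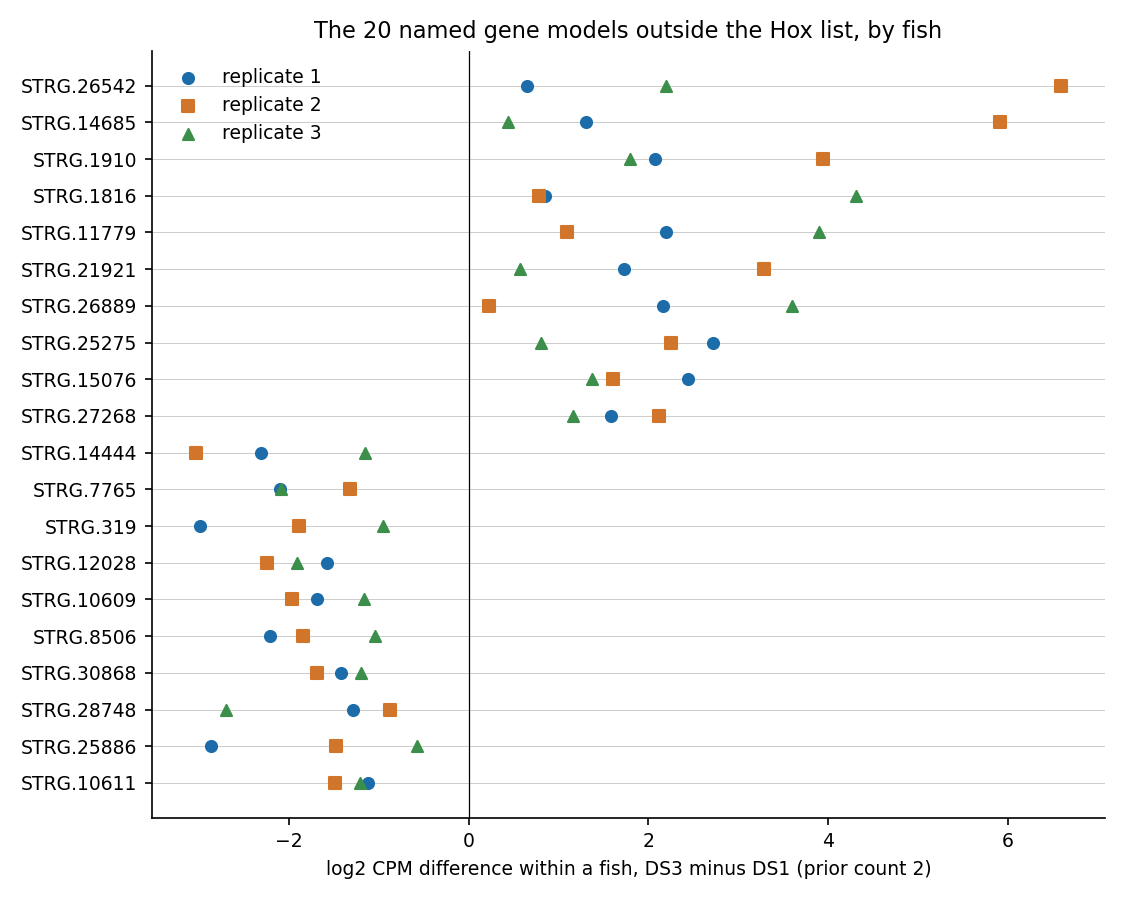
Difference in log2 CPM between DS3 and DS1 within each fish (1 symbol per fish, prior count 2) for the 10 rising and 10 falling gene models outside the *Hox* list. All points lie on the side of 0 that their call names, and replicate 2 lies far to the right of the others in STRG.26542 and STRG.14685.

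The libraries of DSL and DS2 gave a second look at these genes. They do not enter the DS3 and DS1 means. They do come from the same fish and share the fit's filter and estimate of spread, so this look is not independent of the calls. DSL against DS2 had 405 calls (1.92% of tested gene models), 233 higher (1.1%) and 172 lower (0.814%). Of the 15 *Hox* genes higher in DS3, 9 were called higher in DSL than in DS2 and 1 lower, with a median log2 difference of 2.22 beside 0.01 over all tested gene models. Both *Hox* genes that fell were called lower in DSL. The exception was *HOXC8A*, which rose from 40.9, 34.3 and 31.9 CPM in DS1 to 58.8, 57.3 and 57.5 CPM in DS3 and stood at 29.3, 28.7 and 30.1 CPM in DSL (DSL against DS2 −0.86 ± 0.119, edgeR, adjusted p = 0.000404). *HOXC4A*, *HOXC5A*, *HOXC9A*, *HOXA7A* and *HOXD4A* had no call between DSL and DS2, with log2 differences from −0.17 to 0.48.

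**Figure D5:**
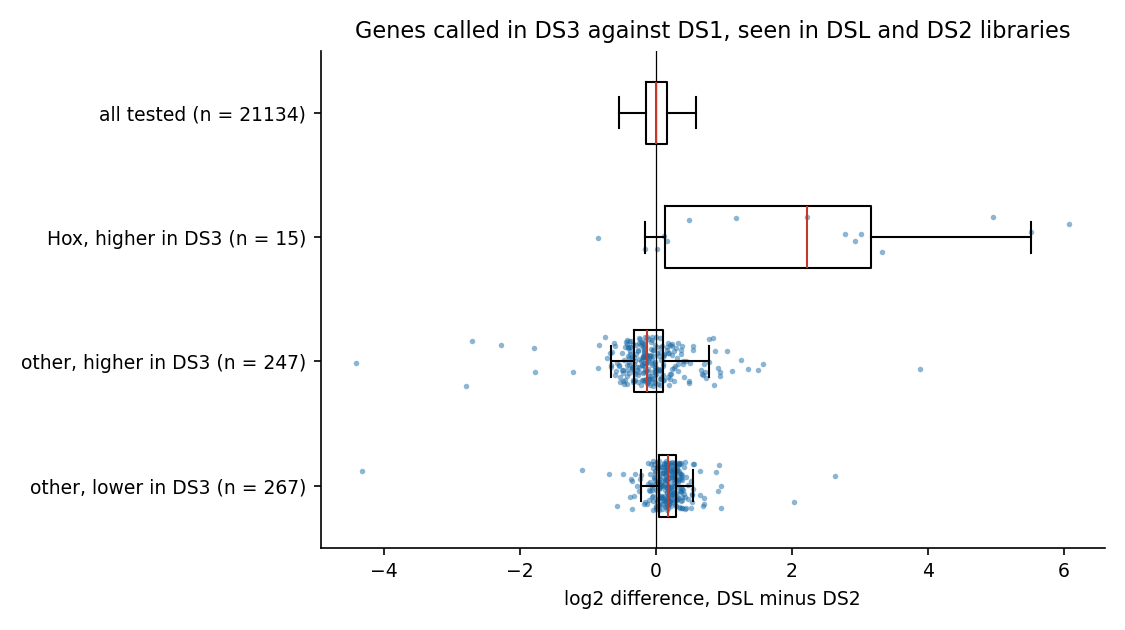
Log2 difference DSL minus DS2 for all tested gene models and for the *Hox* genes higher in DS3, the other gene models higher in DS3 and the other gene models lower in DS3; boxes show quartiles with a red median, whiskers the 5th to 95th percentile, and points single genes. The medians are 0.01, 2.22, −0.13 and 0.17.

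In the main fit, gene models outside the *Hox* list did not follow the *Hox* pattern as a set. Of the 247 higher in DS3, 163 (66%) had a negative difference between DSL and DS2, beside 48.9% of all tested gene models, with 16 called higher and 9 lower. Of the 267 lower in DS3, 225 (84.3%) had a positive difference, beside 51.1%, with 10 called higher and 3 lower. Taken over both directions 388 of 514 (75.5%) pointed the other way, beside 60.0% of all tested gene models. That share was 40% of 15 calls without replicate 1 and 40% of 15 without replicate 2, beside 59.1% and 54.7% of all tested gene models. Without replicate 3 it was 82.7% of 1437, beside 60.5%. It was thus below the share over all tested gene models without replicate 1 or 2 and above it without replicate 3, so it depended on which fish entered. Of the 50 gene models called in both comparisons, 30 moved the same way, 11 of them *Hox* genes, and 20 moved in opposite directions, 1 of them a *Hox* gene. STRG.21857 (chromosome 17, 3426172 to 3439506), one of the 19 outside the list that moved the same way, had 1.08, 1.76 and 2.74 CPM in DS1, 2.82, 5.96 and 6.15 CPM in DS3, and 30.3, 48.1 and 44 CPM in DSL. Its groups did not overlap between DS1 and DS3, where its log2 difference was 1.43 (edgeR, adjusted p = 0.000502, 0.105 without replicate 2 and 0.189 without fish in the model), and it was 3.88 for DSL against DS2 (adjusted p = 5.94e-12).

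Over the 4 spines, the DS2 mean fell between those of DS1 and DS3 in 258 of the 262 gene models that were higher and 258 of the 269 that were lower. The same held for 10280 of all 21134 tested gene models. DS3 had the highest mean in 223 of the 262, beside 6163 of all tested gene models. It had the lowest mean in 254 of the 269, beside 6348 of all tested gene models. Choosing genes for a difference between DS3 and DS1 fixes both kinds of position in large part, so these counts are a description only. Comparisons of the other tissues with DS2 were added after the values were seen, and they share the DS2 libraries. In Pter, 130 of the 247 rising gene models outside the *Hox* list were called higher than in DS2 and 3 lower, and of the 267 falling ones 78 were called higher and 45 lower, beside 9.64% higher and 13.1% lower of all tested gene models. The median log2 difference was above 0 for both sets, at 0.41 and 0.21. In DF, 33 of the rising gene models were called higher and 89 lower, and of the falling ones 187 higher and 31 lower. Over all tested gene models the shares were 16.1% higher and 14% lower, and the medians of the sets were −0.22 and 0.78. Of the 15 *Hox* genes higher in DS3, 9 were called higher in DF than in DS2 and 5 lower. In Pter the counts were 9 and 1.

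The calls were spread over the genome. Each of the 21 numbered chromosomes held between 10 and 36 of them, from 1.41% of tested gene models on chromosome 18 to 3.72% on chromosome 11. Within 1 Mb of a *Hox* gene, 26 of 782 other tested gene models were called (3.32%), 11 higher and 15 lower, beside 488 of 20314 elsewhere (2.4%). The 3 called neighbours of *HOXDB*, STRG.8271, STRG.8297 and STRG.8311, were named after their values were seen. All were lower in DS3, with log2 differences of −0.62, −0.46 and −0.75, and none of the 3 was called without fish in the model. The share called among all tested neighbours of *HOXDB* is not given here, so no local pattern is read from these 3.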

How the data were processed

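RNA-seq counts from 21 libraries of L/L fish (7 tissues of 3 fish) were used, and 85 of the 106 count columns, which belong to other samples, were left out. The deposited counts are whole reads per gene model, not normalized, and the table also gives exon length in bp. Per the labels and the study's methods, the authors trimmed reads with Trim Galore and cutadapt (2.4, with FastQC 0.11.9), mapped with STAR and counted with featureCounts of Subread (2.0.1, from the submitters' processing notes; the study's methods name another featureCounts version for *Gasterosteus* and similar protocols for *Apeltes*), on StringTie gene models of their own assembly, with *Hox* genes named by BLAST. Whether counting used the strand of these stranded libraries is not given in the sources used here, so overlapping gene models are uncertain.

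Genes were kept by filterByExpr, scaled by TMM and tested with edgeR 4.0.16 (R 4.3.3, quasi-likelihood F test, two-sided) with tissue and fish as terms, all 21 libraries sharing the spread, and Benjamini-Hochberg adjustment over all tested genes at 0.05. The approximate SE is the log2 difference over the square root of F. It understates the uncertainty where a spine has almost no reads, as DS1 does for *HOXD9B* and *HOXD11B*. CPM used TMM-scaled totals, within-fish log2 CPM a prior count of 2, and ratios of pooled reads an exact 95% interval. The study names DESeq2 and states no block. For DS1 against DS3 in low-spine *Apeltes*, at a stricter threshold, it lists *HOXD9B*, *HOXD11B*, *HOXD4B*, *HOXD11A*, *HOXD10A*, *HOXD9A*, *HOXC10A*, *HOXC9A*, *HOXC8A*, *HOXC4A* and *HOXA10B*. All of these were also called here. *HOXA7A*, *HOXA9B*, *HOXD4A*, *HOXC5A*, *HOXA2A* and *HOXA5A* were called here and are not on that list. Replicate numbers pair the samples because each number is 1 fish. Residuals of different tissues of the same fish, after removing tissue means, correlated at 0.52 or more over 63 pairs. With fish as a term, the p-values rest on the spread left after tissue and fish levels are removed. Differences in level between the 3 fish do not enter that spread, which is estimated over all 21 libraries. Libraries of one group differed far beyond sampling noise (chi-square per degree of freedom 32.7 to 121), so none was a duplicate.

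Named genes were all *Hox* genes and, outside them, up to 10 higher and 10 lower gene models with the largest log2 difference among those past the threshold, with the same direction in 3 of 3 fish and with a mean of at least 1 CPM in the higher spine. The members and lists were chosen with earlier results of these data known. Alternatives were RLE factors, DESeq2 1.42.0, limma-voom (limma 3.58.1), no filter, a filter of 1 CPM in 3 libraries, the compared tissues or the 4 spines alone, no fish term, and leaving out each fish or library. The procedure was tested on simulated data. Those counts were drawn from the fitted model itself, so they cannot show how far the calls depend on single fish or libraries.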

Additional observations from a re-analysis of the deposited data

How the results depend on the processing

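Whether depth limited the calls was not tested. *HOXA11B*, *HOXC11A*, *HOXC12A*, *HOXA13B* and *HOXD12A* rested on at most 16 pooled reads in either spine. The cause of the changes below was not tested. For DS3 against DS1, with 531 genes called, DESeq2 called 1201, no filter 812, DS1 and DS3 libraries alone 257, and the model without the replicate block 15, and leaving out 1 fish or 1 library gave from 25 to 2407. Of the *Hox* genes, 17 were called, 10 without the replicate block, and 10 to 17 on leaving out 1 fish or library, the fewest without replicate 2. For DSL against DS2, with 405 called, DESeq2 called 719, the model without the replicate block 36, and leaving out 1 fish or library gave 101 to 467. The share of DS3 calls that were higher was 49.3%, 86.7% without the block, 74.1%, 88.0% and 59.3% without replicates 1, 2 and 3, and 58.4% to 70.4% on leaving out each DS1 library in turn. RLE factors, voom, the stricter filter and the 4 spines alone kept both counts within 1.5 times, with medians of all genes within 0.1. The genes called changed more than the counts. With the 4 spines alone, 367 of the 492 genes called in DS3 against DS1 were among the 531. With the DS1 and DS3 libraries alone, 202 of the 257 were among the 531, and *HOXA9B* lost its call (edgeR, adjusted p = 0.069). In all 7 alternatives that kept the fish term and every DS1 and DS3 library, 184 of the 531 were called, 16 of them *Hox* genes. In the edgeR fit the block also decided the calls of *HOXA7A*, *HOXD9A*, *HOXC8A*, *HOXD4A*, *HOXA2A*, *HOXC5A* and *HOXA5A*, whose adjusted p was 0.0776 to 0.48 without it. Of these genes the study, which states no block for its DESeq2 test, lists *HOXC8A* and *HOXD9A* as different and not the others. Over the 66 named genes, 915 values kept direction and side of the threshold, 168 kept direction and lost the call, and 8 kept direction and gained one. The other 21 changed sign, in 9 *Hox* genes that passed the test in neither fit (*HOXA9A*, *HOXA10A*, *HOXA13B*, *HOXB4A*, *HOXB6A*, *HOXB8A*, *HOXB9A*, *HOXC6A* and *HOXC11A*), and no called value changed sign. The gained calls were 3 for *HOXA11A*, 3 for *HOXA11B* and 2 for *HOXA3A*. *HOXA11A*, a group 11 gene, was thus called lower in DS3 in 3 alternatives. No alternative was left out.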
